A study of Mus musculus with 13 samples.

Results

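The 34 genes described here mark endothelial cells, which line blood and lymph vessels. They are gene symbols known from these cells, but they were chosen with earlier results of these data known, so counts over the list are descriptions. All 34 were found in the deposited tables among 23951 symbols. Of these, 29 serve blood vessels or both kinds of vessel, and 5 (Flt4, Lyve1, Prox1, Pdpn and Mmrn1) are used as markers of lymph vessels. Transcript levels came from RNA sequencing of whole mammary gland of female mice that carry a conditional knockout of Jak1 (called KO) or are wildtype controls. JAK1 is a tyrosine kinase that passes on signals of many cytokine receptors, and the study asked what it does for inflammatory cytokine signals and for the remodelling of the gland. The cells in which Jak1 is deleted and the Cre line used are not given in the labels. A library is named by M and the number of its mouse, and values are given in the order in which the libraries stand here. At day 2 of involution, the regression that follows weaning, there were 4 KO libraries (M43196, M43767, M44176 and M44440) and 3 control libraries (M44448, M43768 and M43914). At day 7 of lactation there were 3 KO libraries (M44174, M42734 and M43767) and 3 control libraries (M42186, M43768 and M44175). The extraction protocol counts 7 KO and 6 control mice, but the titles hold 11 different numbers, since M43767 and M43768 stand at both stages. All libraries of 1 stage carry different mouse numbers.

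Endothelial cells are held together by VE-cadherin and other junction proteins, and they grow and survive on vascular endothelial growth factor (VEGF) and angiopoietin signals. Transcription factors of the ETS and SOX families give these cells their identity. A dense capillary bed surrounds the milk-producing alveoli and supplies them with nutrients, while lymph vessels drain fluid and leukocytes. After weaning the alveoli regress and fat cells refill the gland.

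Promoter windows from RefSeq (build GRCm38.p6, 250 bases before to 50 after the start of a gene) were at hand for 17 of the 34 genes, in 23 windows. The windows below are those of the receptor genes Tie1 and Tek, which had the smallest p-values at lactation, and of Emcn, Cd34 and Pdpn, which were among the 4 with the smallest at involution. Capitals mark TTCCTG, which is CAGGAA on the other strand, a core motif bound by ETS family factors such as ERG, FLI1 and ETS1. The files use another build (mm9), so these positions are not those of the files. Tie1 stands at chr4:118489800-118490099 (- strand), Tek at chr4:94739039-94739338 (+ strand), Emcn at chr3:137340828-137341127 (+ strand), Cd34 at chr1:194938571-194938870 (+ strand) and Pdpn at chr4:143299515-143299814 (- strand), and each is printed 5′ to 3′ on the strand of the gene.
Tie1: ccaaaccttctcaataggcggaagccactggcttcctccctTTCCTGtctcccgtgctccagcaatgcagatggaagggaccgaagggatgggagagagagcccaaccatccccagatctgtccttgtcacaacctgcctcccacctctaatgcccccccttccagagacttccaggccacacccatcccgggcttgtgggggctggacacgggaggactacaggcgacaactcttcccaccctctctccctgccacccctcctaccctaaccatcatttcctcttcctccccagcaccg
Tek: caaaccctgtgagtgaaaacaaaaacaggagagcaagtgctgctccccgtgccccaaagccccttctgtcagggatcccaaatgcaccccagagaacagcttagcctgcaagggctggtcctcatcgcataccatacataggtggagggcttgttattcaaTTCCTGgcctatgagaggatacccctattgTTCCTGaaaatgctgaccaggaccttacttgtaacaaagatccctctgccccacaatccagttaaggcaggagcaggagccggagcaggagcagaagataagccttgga
Emcn: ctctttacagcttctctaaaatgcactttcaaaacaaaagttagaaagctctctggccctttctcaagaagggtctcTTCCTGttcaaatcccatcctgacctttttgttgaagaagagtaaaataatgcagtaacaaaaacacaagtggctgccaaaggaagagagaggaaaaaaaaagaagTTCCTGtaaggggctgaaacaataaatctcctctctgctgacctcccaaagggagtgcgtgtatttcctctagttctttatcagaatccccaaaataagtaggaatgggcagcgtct
Cd34: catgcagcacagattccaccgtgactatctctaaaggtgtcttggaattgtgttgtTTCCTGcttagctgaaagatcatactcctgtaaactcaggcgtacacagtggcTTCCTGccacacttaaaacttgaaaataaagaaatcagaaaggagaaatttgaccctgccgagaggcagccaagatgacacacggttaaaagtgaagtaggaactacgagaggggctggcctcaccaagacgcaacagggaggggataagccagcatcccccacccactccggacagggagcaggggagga
Pdpn: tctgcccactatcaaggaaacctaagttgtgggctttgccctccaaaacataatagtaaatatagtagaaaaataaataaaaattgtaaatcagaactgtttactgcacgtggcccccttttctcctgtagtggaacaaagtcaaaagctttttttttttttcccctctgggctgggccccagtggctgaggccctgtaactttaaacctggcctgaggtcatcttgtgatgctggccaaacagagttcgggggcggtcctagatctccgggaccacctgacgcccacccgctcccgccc
CAGGAA or CCGGAA was found on either strand in 12 of the 23 windows (52.2%), against 41.4% of all 32851 windows of the table. Tek, Emcn and Cd34 held 2 such matches, Tie1 held 1 and Pdpn held 0. TTCNNNGAA, the palindrome bound by STAT factors, was found in 0 of the 23 windows and in 8.3% of all windows, so it overlapped none of the ETS matches. A match is a description of these letters and does not show that a factor binds there.

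How many fragments were sequenced is unknown here. The steps between low values put relative depth at 0.485 (KO M43196) to 1.504 (KO M44440) of the mean at involution and at 0.724 (control M44175) to 1.28 (KO M44174) at lactation. The level of Jak1 was 23.0, 22.2, 26.3 and 17.3 FPKM in KO glands and 24.3, 24.0 and 24.6 FPKM in control glands at involution. At day 7 of lactation it stood at 9.51, 10.2 and 11.2 FPKM in KO glands and at 14.2, 14.0 and 6.18 FPKM in controls. The groups overlapped at both stages. Which exons are deleted, and in which cells, is not given in the labels, so these values neither check nor contradict them. Control M44175 stood apart at lactation. Relative to the table's median, its transcripts up to 1000 bases were 0.40 higher on the log2 scale and its transcripts over 2500 bases 0.37 lower, while the corresponding medians of the other 5 libraries lay between -0.066 and 0.079. It was the lowest of the 6 libraries for 19 of the 34 vessel genes, so lactation results are given with and without it. At involution KO M44176 was the highest library for 22 vessel genes, and KO M43196, the shallowest, was the lowest for 12.

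The vessel genes were detected throughout. Of all their entries 1 was at 0 (Mmrn1 in KO M42734 at lactation), and the defining blood vessel markers Pecam1, Cdh5, Tie1 and Esam were above 1 FPKM in every library. The lymphatic markers were weaker: Prox1, the factor that sets lymphatic identity, lay between 0.195 and 0.732 FPKM over the 13 libraries, and Mmrn1 reached at most 0.702 FPKM. In whole tissue, fewer endothelial cells and less RNA per endothelial cell cannot be told apart.

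**Figure D1:**
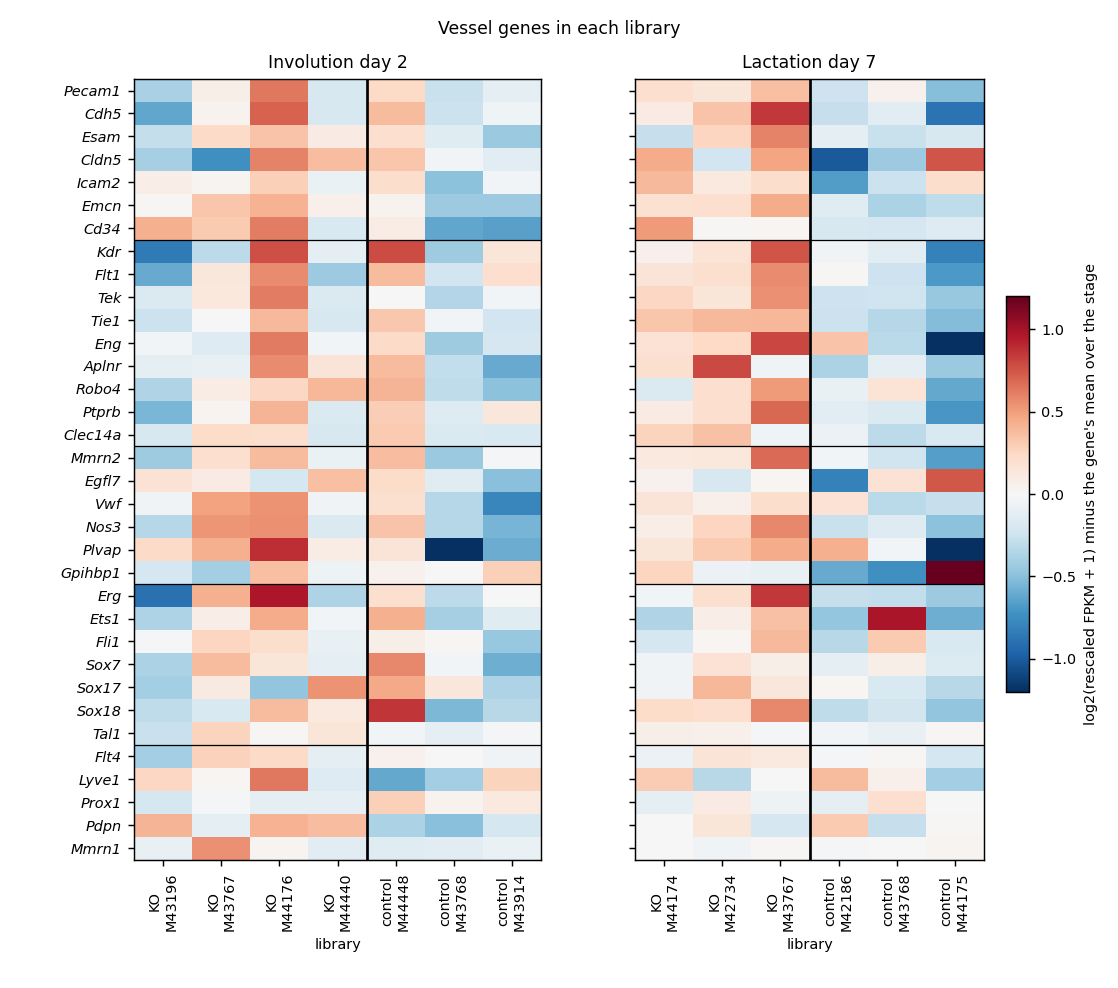
Level of each of the 34 vessel genes (rows) in each library (columns) as log2(rescaled FPKM + 1) minus the gene's mean over the libraries of the stage, with KO libraries left of the thick line and controls right of it. Thin lines separate junction and surface genes, receptors, secreted and capillary genes, transcription factors and lymphatic genes; at lactation most blood vessel genes are redder in the KO columns, whereas at involution KO M44176 and control M44448 are the reddest columns, with medians of 9.40 and 9.55 FPKM over the 34 genes.

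By level per transcript length, Gpihbp1 led in all 4 groups. Gpihbp1 carries lipoprotein lipase across the capillary wall to the blood side. At involution it averaged 147 ± 35.7 FPKM in KO glands and 169 ± 19.9 FPKM in control glands (SD, n = 4 and 3). Next came the tight junction gene Cldn5 (103 ± 43.2 FPKM in KO and 105 ± 16.7 FPKM in control glands) and the secreted factor Egfl7 (84.7 ± 13.9 FPKM in KO and 73.3 ± 17.1 FPKM in control glands). The ranges of Gpihbp1, Cldn5 and Egfl7 did not overlap in the control glands, but each overlapped its neighbour in the KO glands. At lactation Gpihbp1 averaged 50.5 ± 7.86 FPKM in KO glands, ahead of Egfl7 at 9.75 ± 0.926 FPKM and Cdh5 at 9.05 ± 2.54 FPKM (SD, n = 3 each), and Egfl7 and Cdh5 overlapped. Flt4, Tal1, Prox1 and Mmrn1 took the 4 lowest ranks in both groups at involution, where Prox1 and Mmrn1 of the KO glands overlapped.

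At day 7 of lactation, most vessel genes were higher in KO glands, though none passed the test after adjustment. All 3 KO libraries lay above all 3 controls for 15 of the 34 genes after rescaling, against 4.1% of 17274 genes with any value above 0, and for 0 of the 34 did all KO libraries lie below (2.26% of all genes). These 15 were Tie1, Tek, Kdr, Flt1, Aplnr, Ptprb, Clec14a, Cdh5, Pecam1, Emcn, Cd34, Mmrn2, Nos3, Erg and Sox18. The KO mean was higher for 27 of 34 genes, against 50.6% of all genes, and the 7 exceptions were Egfl7, Gpihbp1, Ets1, Lyve1, Prox1, Pdpn and Mmrn1. Of these 7, 4 are lymphatic genes. Without control M44175 the KO mean was higher for 29 of 34 (50.4% of all genes), with Ets1, Lyve1, Prox1, Pdpn and Mmrn1 as exceptions. Without control M42186 it was higher for 28 of 34 (55.8%), and Lyve1 and Pdpn were no longer exceptions.

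Among receptors, the angiopoietin receptor Tek and its partner Tie1 had the smallest p-values. Tie1 stood at 3.12, 3.27 and 3.20 FPKM in KO glands and at 1.69, 1.601 and 1.45 FPKM in control glands. The lowest KO library lay well above the highest control, and the spread within each group was the smallest among the receptors (CV 2.34% and 7.79%). Its log2 difference was 0.75 ± 0.17 (SE; limma, adjusted p = 0.998), where log2 differences are KO minus control on the scale of log2(rescaled FPKM + 1) throughout and are given with SE and, for single genes, the unadjusted 95% interval. Tek stood at 1.76, 1.55 and 2.29 FPKM in KO glands and at 0.925, 0.974 and 0.781 FPKM in control glands, again without overlap (0.63 ± 0.18, 95% interval 0.20 to 1.05). Tek passed the filter of 1 FPKM in 3 libraries only through the KO libraries.

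The VEGF receptors followed the same order. Kdr, the main signalling receptor for VEGF, stood at 4.48, 4.90 and 7.55 FPKM in KO glands and at 4.01, 3.84 and 2.26 FPKM in control glands (0.65 ± 0.29, 95% interval -0.021 to 1.32). Flt1, which binds VEGF with little signalling, stood at 1.65, 1.71 and 2.41 FPKM in KO glands and at 1.35, 1.01 and 0.535 FPKM in control glands (0.61 ± 0.23, 95% interval 0.077 to 1.15). Neither gene overlapped between the groups, and in both the lowest control was M44175 and the highest KO library M43767.

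Ptprb, the phosphatase that acts on VE-cadherin and the angiopoietin receptor, stood at 2.15, 2.36 and 3.59 FPKM in KO and 1.64, 1.61 and 0.911 FPKM in control glands (0.66 ± 0.25, 95% interval 0.096 to 1.23). Aplnr, the apelin receptor, stood at 1.98, 3.52 and 1.48 FPKM in KO and 0.978, 1.42 and 1.04 FPKM in control glands (0.63 ± 0.25, 95% interval 0.055 to 1.204). Both were separated between the groups, Aplnr narrowly. Eng, a coreceptor for proteins of the TGF-beta family, ran over 6.86 to 10.7 FPKM in KO and 2.19 to 7.62 FPKM in control glands and overlapped (0.81 ± 0.40, 95% interval -0.11 to 1.74). Robo4, a receptor that steadies the vessel wall, overlapped as well (1.57 to 3.02 FPKM in KO and 1.01 to 2.26 FPKM in control glands). Clec14a, a lectin that binds the matrix protein of Mmrn2, was separated at a low level (0.594 to 1.12 FPKM in KO and 0.346 to 0.579 FPKM in control glands) and was below the filter.

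**Figure D2:**
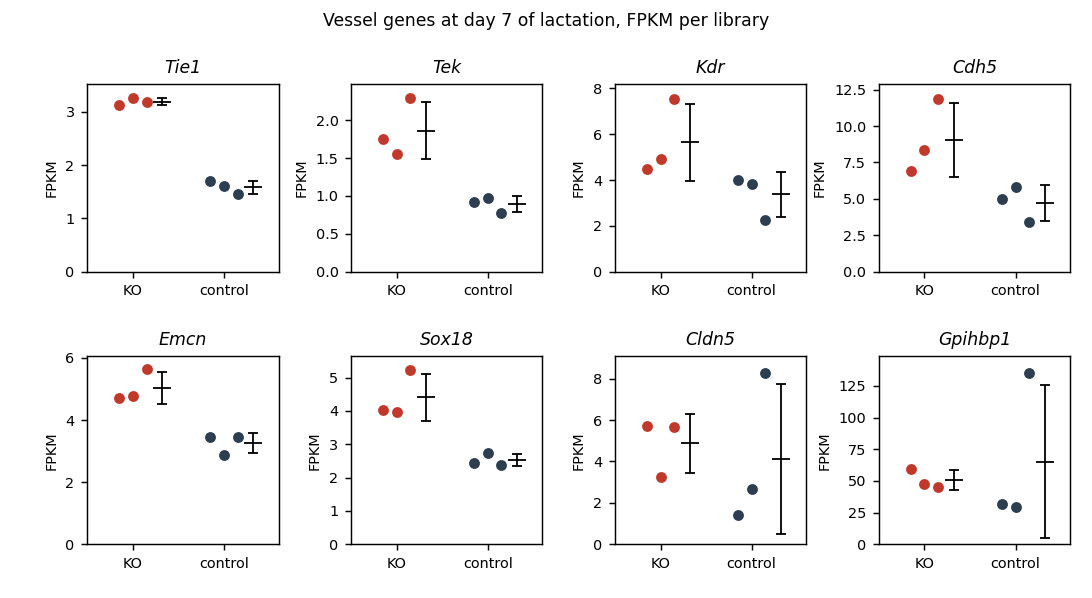
FPKM of 8 vessel genes in each library at day 7 of lactation, with KO left and control right, and with the mean and SD beside the points (n = 3 each). Tie1, Tek, Kdr, Cdh5, Emcn and Sox18 do not overlap between the groups, while Cldn5 and Gpihbp1 overlap through 1 control (M44175) at 8.26 and 135 FPKM.

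Junction and surface genes ran the same way with more overlap. Cdh5, which encodes VE-cadherin, stood at 6.92, 8.38 and 11.9 FPKM in KO and 4.99, 5.82 and 3.40 FPKM in control glands (0.86 ± 0.29, 95% interval 0.19 to 1.53). Pecam1, an adhesion molecule of cell contacts, stood at 7.99, 7.65 and 8.67 FPKM in KO and 5.43, 7.16 and 5.04 FPKM in control glands (0.47 ± 0.22, 95% interval -0.032 to 0.98). Emcn, a sialomucin of capillaries and veins, stood at 4.71, 4.76 and 5.63 FPKM in KO and 3.44, 2.89 and 3.46 FPKM in control glands (0.55 ± 0.19, 95% interval 0.12 to 0.99). All 3 genes were separated, Pecam1 by the smallest margin. Cd34, a surface sialomucin that fibroblasts also carry, had 6.42, 4.23 and 4.12 FPKM in KO and 3.47, 3.54 and 4.14 FPKM in control glands, where the highest control (M44175) lay just above the lowest KO library (M43767). It was separated only after rescaling. Esam, Cldn5 and Icam2 overlapped, with log2 differences of 0.38 ± 0.26, 0.46 ± 0.44 and 0.47 ± 0.25.

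Secreted and capillary genes were mixed. Mmrn2, a glycoprotein of the endothelial matrix, stood at 2.37, 2.38 and 3.82 FPKM in KO and 1.97, 1.64 and 1.08 FPKM in control glands without overlap (0.62 ± 0.25, 95% interval 0.046 to 1.197). Nos3, the endothelial nitric oxide synthase, was separated too, at 0.970, 1.22 and 1.70 FPKM in KO and 0.530, 0.671 and 0.365 FPKM in control glands, but was below the filter. Plvap, which forms the diaphragms of fenestrated capillaries, overlapped (6.05 to 7.37 FPKM in KO and 1.79 to 7.35 FPKM in control glands), as did the clotting factor Vwf, which was below the filter (0.619 to 0.764 FPKM in KO and 0.247 to 0.732 FPKM in control glands). Gpihbp1 stood at 59.4, 47.2 and 44.8 FPKM in KO and 31.4, 29.6 and 135 FPKM in control glands. Without M44175, every KO library was above both remaining controls for Gpihbp1, Cldn5, Icam2 and Tal1 as well. Gpihbp1 and Icam2 (825 and 556.5 bases) belong to the short transcripts that ran high in M44175, and Cldn5 has 1416 bases. Tie1, Kdr, Flt1 and Ptprb (4162.5, 5924, 6593.5 and 9463.5 bases) belong to the long transcripts that ran low in M44175, their lowest control. They stayed separated without it. With 1 library left out in turn, the log2 difference ran from 0.67 to 0.81 for Tie1, 0.42 to 0.78 for Flt1 and 0.48 to 0.78 for Ptprb. Egfl7 had 10.6, 8.75 and 9.92 FPKM in KO and 5.199, 11.7 and 20.0 FPKM in control glands, so the controls alone spanned the KO values.

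Of the transcription factors, Sox18 and Erg were separated. Sox18, a SOX factor of blood and lymph vessel development, stood at 4.03, 3.98 and 5.23 FPKM in KO and 2.45, 2.74 and 2.39 FPKM in control glands (0.66 ± 0.20, 95% interval 0.20 to 1.12). Erg, an ETS factor that keeps endothelial junction genes active, stood at 1.24, 1.61 and 3.00 FPKM in KO and 0.861, 0.872 and 0.776 FPKM in control glands (0.68 ± 0.25, 95% interval 0.11 to 1.25), and it passed the filter only through the KO libraries. The related ETS genes Ets1 and Fli1, which lymphocytes also express, overlapped. Ets1 stood at 1.41, 2.28 and 2.86 FPKM in KO and 1.22, 5.15 and 1.205 FPKM in control glands, with the highest value in control M43768. That library also held 6.10 FPKM of the T cell gene Cd3e, against 0.0653 to 0.465 FPKM in the 3 KO libraries and 0.0702 and 0.317 FPKM in the other controls, and the part of lymphocytes in its Ets1 value was not tested. Sox7, Sox17 and Tal1 were below the filter and overlapped, at no more than 1.46 FPKM.

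The 5 lymphatic genes were all below the filter at lactation, and each overlapped between the groups. Pdpn, the mucin-like surface protein podoplanin, ran over 0.590 to 1.05 FPKM in KO and 0.536 to 1.27 FPKM in control glands. Lyve1, a hyaluronan receptor, ran over 0.159 to 0.791 FPKM in KO and 0.108 to 0.864 FPKM in control glands. Flt4, the receptor for the lymphatic growth factor VEGF-C, ran over 0.221 to 0.423 FPKM in KO and 0.115 to 0.289 FPKM in control glands, and it was the 1 lymphatic gene with a higher KO mean.

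In the limma fit of 9560 genes at lactation, 0 of the 23 vessel genes tested were called at an adjusted p under 0.05, against 0.0105% of all genes (1 gene). At an unadjusted p under 0.05, 10 vessel genes were higher and 0 lower, against 1.78% of all genes higher and 0.607% lower. The 10 were Tie1, Tek, Sox18, Cdh5, Emcn, Erg, Ptprb, Flt1, Aplnr and Mmrn2, and each had an adjusted p of 0.998. Tek and Erg entered the test only through the KO libraries. Leaving them out, 8 of 21 genes were under 0.05 and higher, 20 of 21 had positive differences and the median difference was 0.55. Without KO M43767, 2 of the 21 genes then tested were under 0.05 (1.01% of all genes in that fit), and without control M44175 there were 9 of 23 (4.24%). Scaled to the total outside the milk proteins, 6 were under 0.05 (1.45% of all genes). Among the 23 tested, 22 had positive differences, against 51.2% of all genes, and 13 were separated upward and 0 downward, against 3.5% and 2.25% of the genes tested. The 22 and the 13 include Tek and Erg, so nothing can be read from the part of Tek and Erg in them. The median log2 difference of the tested vessel genes was 0.60, against 0.0082 over all genes, and it was 0.45 without M43767 and 0.45 without M44175. With the transcript length trend of each library removed, the median was 0.56 and the count of separated genes among the 34 was again 15, with Icam2 in place of Clec14a. Without M44175, 19 of 34 were separated upward, against 8.70% of all genes.

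Most markers of stromal cells had positive differences beside the vessel genes at lactation, against 51.2% of all genes. All 7 fibroblast markers tested had positive differences (median 0.73), as did 10 of 11 adipocyte markers (median 0.75) and 10 of 11 markers of pericytes and vascular smooth muscle, the cells that wrap vessels (median 0.39). Among luminal epithelial markers 4 of 9 were positive, with a median of -0.11. Basal epithelial markers differed from these, with 7 of 9 positive (median 0.21), and 5 of 7 macrophage markers were positive (median 0.30). Of the 4 general leukocyte markers 0 were positive (median -0.68), and this direction rested on control M43768, without which 2 of the 3 tested were positive (median 0.17). Their summed level ran from 7.70 to 22.3 FPKM in KO glands and from 12.3 to 104 FPKM in control glands. Over the mean log2 level of a list, every KO library lay above every control for adipocytes (5.38 to 5.96 in KO and 4.78 to 5.31 in control glands), fibroblasts (3.51 to 3.66 in KO and 2.32 to 3.41 in control glands) and pericytes (2.21 to 2.35 in KO and 1.77 to 1.99 in control glands). Summed FPKM, which follow the most abundant markers, overlapped between the groups. The adipocyte sum ran from 1607 to 2390.4 FPKM in KO glands and from 947 to 2975 FPKM in control glands, and the fibroblast sum from 137 to 149.9 FPKM in KO and from 49.9 to 138 FPKM in control glands. The pericyte sum ran from 69.9 to 93.1 FPKM in KO and from 47.9 to 88.6 FPKM in control glands. The smallest p of the lists named here belonged to Plin1, the coat protein of fat droplets (1.397 ± 0.23, 95% interval 0.86 to 1.93, limma, adjusted p = 0.644). It stood at 8.99, 7.52 and 11.98 FPKM in KO and 3.13, 2.57 and 3.61 FPKM in control glands. The part of a shift in cell makeup in the vessel gene values was not tested.

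Levels were also set relative to Cdh5, Pecam1, Tie1 and Esam of the same library. This scaling lowers every gene by the difference of these 4 vessel genes themselves, so it centres the vessel genes by construction. Of the 19 other vessel genes tested, 9 were then higher and 10 lower in KO glands, with a median of -0.015 against -0.59 over all genes. At an unadjusted p under 0.05 there were 0 vessel genes (32.7% of all genes). Emcn then stood at -0.062. Erg and Tek lay above the controls in every KO library (0.146% of all genes) and 0 of the 19 lay below (45.3%), but nothing can be read from Erg and Tek here, since they entered only through the KO libraries.

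**Figure D3:**
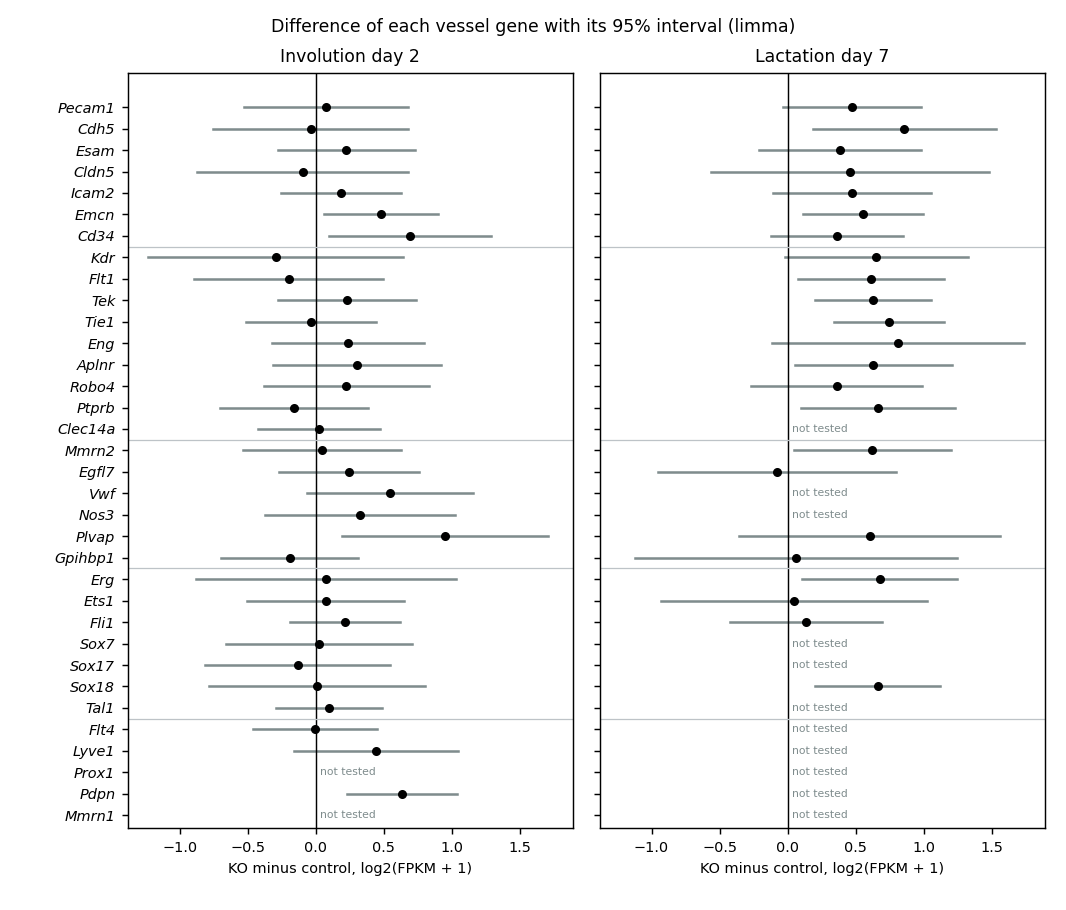
Log2 difference (KO minus control) of each vessel gene with its 95% interval from limma, at day 2 of involution and day 7 of lactation; genes below the filter are written as not tested. At lactation 22 of 23 points lie right of 0, and at involution the points spread on both sides, with Plvap, Cd34, Pdpn and Emcn having intervals above 0 before adjustment.

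At day 2 of involution the vessel genes had no common direction. Of the 32 tested, 23 had positive and 9 negative differences, against 51.8% positive over 12509 genes, with a median of 0.085 against 0.0095. Of the 32, 0 were called at an adjusted p under 0.05, against 0.0719% of all genes (9 genes). At an unadjusted p under 0.05, 4 were higher (Pdpn, Plvap, Cd34 and Emcn) and 0 lower, against 3.6% of all genes higher and 3.24% lower. The 4 KO libraries all lay above the 3 controls for 1 of the 34 genes, Pdpn (2.87% of 19110 genes), and all below for 1, Prox1 (2.96%). Among the 32 tested, Pdpn was the 1 gene separated upward (3.06% of the genes tested) and 0 were separated downward (3.75%). The KO mean was higher for 24 of 34, against 56% of all genes.

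Pdpn stood at 5.07, 3.17, 5.11 and 4.91 FPKM in KO glands and at 2.49, 2.29 and 3.03 FPKM in control glands. KO M43767 lay below the other KO libraries but still above the highest control. The log2 difference was 0.63 ± 0.17 (SE; limma, adjusted p = 0.474), and it ran from 0.57 to 0.77 when 1 library at a time was left out. Podoplanin is also made by fibroblasts and basal cells of epithelia. Beside it, all 8 fibroblast markers had positive differences (median 0.79) and 8 of 9 basal epithelial markers did (median 0.40). The fibroblast sum ran from 327 to 874 FPKM in KO and from 200.1 to 464 FPKM in control glands, the basal sum from 477 to 559 FPKM in KO and from 252 to 428 FPKM in control glands, and their part in the Pdpn value was not tested.

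The other lymphatic genes differed in direction, and none was tested against Pdpn. Prox1 stood at 0.195, 0.365, 0.285 and 0.290 FPKM in KO and 0.678, 0.436 and 0.520 FPKM in control glands, without overlap and at levels under the filter. Lyve1 stood at 5.62, 4.55, 7.59 and 4.00 FPKM in KO and 2.62, 3.25 and 5.83 FPKM in control glands and overlapped (0.44 ± 0.26, 95% interval -0.16 to 1.04). Flt4 differed by -0.0072 ± 0.20, and its KO range (0.626 to 1.59 FPKM) enclosed that of the controls (1.13 to 1.23 FPKM). Mmrn1 was below the filter, with its highest value in KO M43767 (0.702 FPKM) and the other 6 libraries between 0.0573 and 0.197 FPKM. Macrophages can also carry Lyve1, and 9 of 11 macrophage markers tested had positive differences (median 0.37). Their sum ran from 349 to 1054 FPKM in KO and from 423 to 555 FPKM in control glands, and their part in Lyve1 was not tested.

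**Figure D4:**
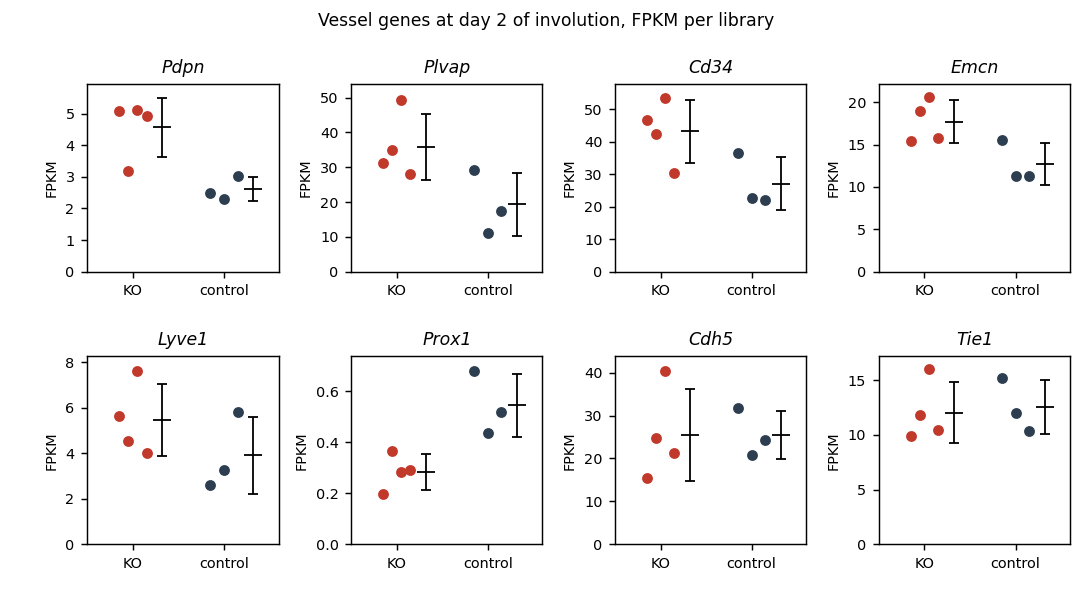
FPKM of 8 vessel genes in each library at day 2 of involution, with KO left and control right, and with the mean and SD beside the points (n = 4 and 3). Pdpn lies higher and Prox1 lower in every KO library, Plvap, Cd34, Emcn and Lyve1 overlap in 1 or more libraries, and so do Cdh5 and Tie1.

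Among blood vessel genes Plvap had the largest difference. It stood at 31.2, 35.0, 49.4 and 27.96 FPKM in KO and 29.2, 11.2 and 17.6 FPKM in control glands (0.95 ± 0.33, 95% interval 0.19 to 1.71, adjusted p = 0.610). Control M44448 alone lay within the KO range. Cd34 stood at 46.9, 42.3, 53.4 and 30.3 FPKM in KO and 36.5, 22.6 and 22.1 FPKM in control glands (0.69 ± 0.26, 95% interval 0.094 to 1.28), and Emcn at 15.4, 19.0, 20.6 and 15.8 FPKM in KO and 15.6, 11.3 and 11.3 FPKM in control glands (0.48 ± 0.18, 95% interval 0.058 to 0.90). In both genes the same control overlapped the KO glands. Without M44448, 9 of the 34 genes were separated upward (Aplnr, Cd34, Emcn, Eng, Nos3, Pdpn, Plvap, Sox18 and Vwf), against 8.27% of all genes, and the median of the tested genes was 0.30. Without the other libraries in turn 1 to 3 were separated upward, against 4.35% to 6.79% of all genes, and the median was 0.0057 without control M43768, 0.047 without control M43914, 0.025 without KO M44176, 0.11 without KO M43767, 0.14 without KO M44440 and 0.21 without KO M43196. Without M44176, Gpihbp1 joined Prox1 below every control. The unadjusted count of 4 became 6 without M44448 (8.13% of all genes) and 1 without control M43768 (4.53%). It became 2 without control M43914 (6.35%), KO M43767 (5.56%) or KO M44176 (6.11%). It was 1 with the milk-free total as the scale (2.86%) and 1 with the pan-endothelial scaling (3.22%).

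Vwf stood at 3.25, 5.03, 5.36 and 3.25 FPKM in KO and 3.97, 2.53 and 1.59 FPKM in control glands (0.54 ± 0.26, 95% interval -0.068 to 1.15), with overlap through M44448. Platelets carry von Willebrand factor too, and the platelet gene Pf4 stood at 118, 45.5, 83.1 and 42.3 FPKM in KO and 25.6, 31.2 and 25.3 FPKM in control glands (1.27 ± 0.35, 95% interval 0.46 to 2.09, adjusted p = 0.474). The 6 platelet and megakaryocyte markers summed to 47.3 to 122 FPKM in KO and 27.7 to 36.4 FPKM in control glands, but most of this sum was Pf4 itself. Their mean log2 level overlapped, at 1.47 to 1.73 in KO and 1.21 to 1.57 in control glands. The 3 markers tested differed by 0.048 to 1.27, with a median of 0.23. The part of platelets in Vwf was not tested. Nos3 ran over 3.60 to 7.53 FPKM in KO and 3.05 to 6.35 FPKM in control glands (0.32 ± 0.30). Gpihbp1 stood at 132, 113, 196 and 147 FPKM in KO and 157, 157 and 192 FPKM in control glands (-0.19 ± 0.22), where KO M44176 was above every control and the other 3 KO libraries below them. Egfl7 and Mmrn2 overlapped, with differences of 0.24 ± 0.22 and 0.046 ± 0.25.

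Tie1 and Cdh5, which were separated at lactation, overlapped at involution. Tie1 stood at 9.93, 11.8, 16.0 and 10.4 FPKM in KO and 15.2, 12.03 and 10.4 FPKM in control glands (-0.038 ± 0.21, 95% interval -0.52 to 0.44). Cdh5 stood at 15.5, 24.7, 40.4 and 21.3 FPKM in KO and 31.7, 20.7 and 24.2 FPKM in control glands (-0.039 ± 0.31, 95% interval -0.76 to 0.68). In both, KO M44176 was the highest library and KO M43196 the lowest. Tek (0.23 ± 0.22), Eng (0.24 ± 0.24), Aplnr (0.30 ± 0.27), Robo4 (0.22 ± 0.26) and Clec14a (0.023 ± 0.20) had positive differences among receptors. Kdr (-0.30 ± 0.41), Flt1 (-0.20 ± 0.30) and Ptprb (-0.16 ± 0.24) had negative ones. Kdr was widely spread, at 2.40, 3.82, 9.40 and 4.62 FPKM in KO and 9.42, 3.63 and 5.88 FPKM in control glands.

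The transcription factors differed by -0.13 (Sox17) to 0.22 (Fli1), and all 7 overlapped. Erg had the widest spread among KO glands (1.53, 5.201, 8.15 and 2.61 FPKM), against 4.30, 2.82 and 3.77 FPKM in control glands. Sox18 stood at 13.01, 14.0, 21.4 and 17.8 FPKM in KO and 30.1, 11.1 and 13.04 FPKM in control glands, where control M44448 was the highest of the 7 libraries. Pecam1 (0.074 ± 0.26), Esam (0.22 ± 0.22), Icam2 (0.18 ± 0.19) and Cldn5 (-0.098 ± 0.34) overlapped as well.

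The libraries in which vessel genes ran highest at involution also held the most RNA of skeletal muscle. The 6 muscle markers summed to 4562 FPKM in KO M44176 and to 1183 FPKM in control M44448, within ranges that began at 4.31 FPKM in KO and 56.2 FPKM in control glands, and Acta1, the actin of skeletal muscle, stood at 1.68, 239.8, 1525 and 18.0 FPKM in KO and 417, 32.02 and 18.6 FPKM in control glands. At lactation the order differed. KO M44174 held the highest muscle sum (905 FPKM) and the lowest mean log2 level of the vessel genes among the KO libraries (1.79). KO M43767 held 0.909 FPKM of muscle markers and had the highest such level (2.02). The part of muscle vessels in the vessel gene values was not tested. KO M43767 held 53.5 FPKM of the skin keratin gene Krt10, against 1.48 to 3.59 FPKM in the other 6 libraries.

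Whether the KO difference itself changed with stage was tested as the difference at involution minus that at lactation. The libraries entered as independent, although mice M43767 and M43768 stand at both stages. Of 32 vessel genes tested 0 were called, against 0.0789% of 12667 genes (10 genes), and 3 had an unadjusted p under 0.05, against 3.35% of all genes. Tie1 had -0.038 ± 0.21 at involution and 0.75 ± 0.17 at lactation, and the difference of the differences was -0.78 ± 0.27 (adjusted p = 0.999 with limma). Ptprb had -0.16 ± 0.24 at involution and 0.66 ± 0.25 at lactation, and the difference between them was -0.83 ± 0.35, 95% interval -1.59 to -0.058. Pdpn had a difference of 0.67 ± 0.27, 95% interval 0.088 to 1.25, but it was below the filter at lactation, so nothing can be read from it here. Without KO M43767 of lactation 1 gene had such a p, without KO M44176 there were 7 and without control M43768 of involution 5, while leaving out control M44448, control M43914, KO M43196 or KO M44440 left 2. In these 7 fits 2.38% to 3.79% of all genes had such a p. With the milk-free total 0 vessel genes did. Of the 32 genes, Clec14a, Vwf, Nos3, Sox7, Sox17, Tal1, Flt4, Lyve1 and Pdpn passed the filter only with the involution libraries. Nothing can be read from their part in the counts and medians of this difference. Over the 32 genes 9 were positive and 23 negative, with a median of -0.29 against 0.0083 over all genes. The median was -0.13 without control M44448 and -0.48 with the milk-free total. Without the 4 libraries of mice M43767 and M43768, 1 gene was under 0.05 (1.85% of all genes) and the median was -0.43. With the mouse as a block, at an estimated correlation of 0.697, 3 vessel genes were under 0.05 (8.34% of all genes), 0 were called and the median was -0.15. Tie1 then differed by -0.75 ± 0.21 (adjusted p = 0.259 with limma). The median was 0.078 when both stages were scaled to the 4 pan-endothelial genes, where that of all genes was 0.47.

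Between the stages levels are set side by side without a test, since the deposited tables may have been scaled separately. With each table rescaled within itself, the 32 genes had a median log2 difference, involution minus lactation, of 1.57 in KO glands and 1.75 in control glands, and all genes had 1.11 in KO and 1.05 in control glands. Every involution library lay above every lactation library for 28 of 32 vessel genes in KO glands (79.8% of all genes) and for 30 of 32 in control glands (74.9%). Rescaling all 13 libraries together lowered the medians to 0.55 in KO and 0.72 in control glands, and those of all genes to 0.19 in KO and 0.14 in control glands. Then 18 of 32 vessel genes were separated upward in KO glands (29.2% of all genes) and 20 of 32 in control glands (27%). Of the 32, Clec14a, Vwf, Nos3, Sox7, Sox17, Tal1, Flt4, Lyve1 and Pdpn passed the filter only with the involution libraries. Nothing can be read from their part in these counts and medians. Cldn5 had the highest difference of the 32 in both groups with the tables rescaled separately, rescaled together or as deposited, at 75.05, 58.2, 149.9 and 128 FPKM in KO glands at involution against 5.73, 3.23 and 5.64 FPKM in KO glands at lactation, and at 124, 99.5 and 92.3 FPKM in control glands at involution against 1.43, 2.69 and 8.26 FPKM in control glands at lactation. Kdr had the lowest in both groups under the same scalings, with a difference of -1.23 in KO and -0.31 in control glands when all libraries were rescaled together.

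**Figure D5:**
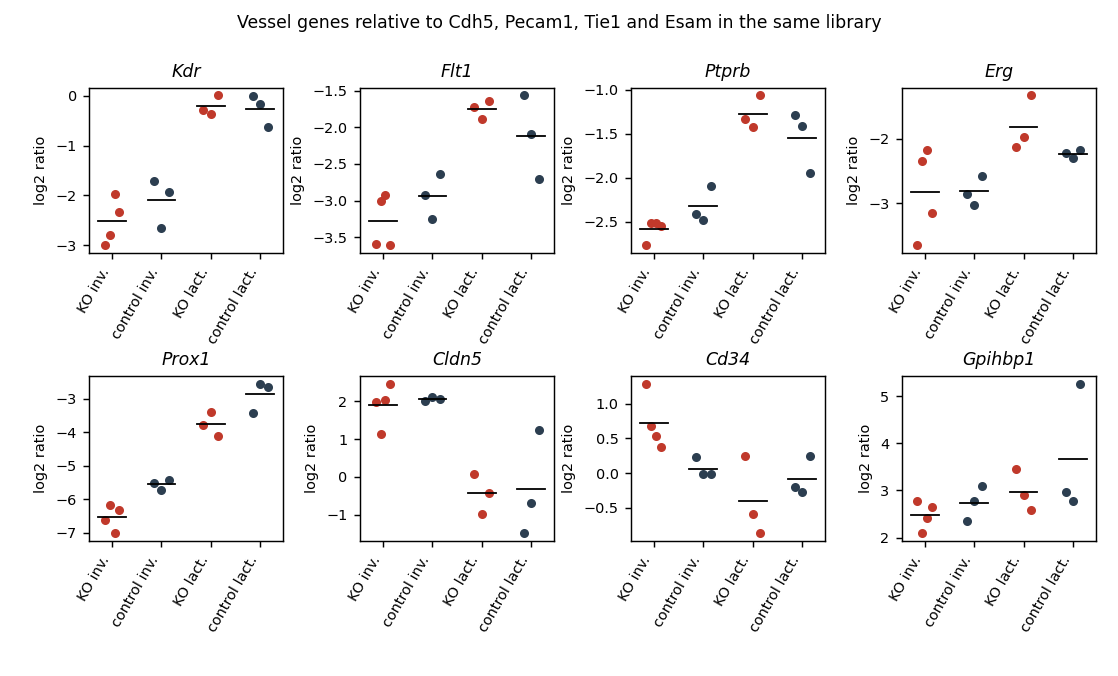
Log2 ratio of 8 vessel genes to the mean log2 FPKM of Cdh5, Pecam1, Tie1 and Esam in the same library, by group, with points for libraries and a line for the group mean (inv. = involution, lact. = lactation). Kdr, Flt1, Ptprb, Erg and Prox1 have lower group means at involution and Cldn5 higher, and Cd34 is higher in the KO than in the control libraries at involution.

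A ratio to Cdh5, Pecam1, Tie1 and Esam in the same library does not depend on how a table was scaled. On this scale Kdr stood at -2.52 ± 0.46 in KO glands at involution and at -0.21 ± 0.20 in KO glands at lactation (log2, SD, n = 4 and 3). In control glands Kdr stood at -2.10 ± 0.49 at involution and at -0.26 ± 0.33 at lactation (n = 3 each). All involution libraries lay below all lactation libraries for Kdr, Ptprb and Erg in both KO glands (32.7% of all genes) and control glands (58.9%), so such a separation was common over all genes. The same held for Flt1, Eng and Mmrn2 in KO glands and for Emcn and Ets1 in control glands. Cldn5 lay above in both KO glands (5.19%) and control glands (3.01%), at 1.90 ± 0.55 at involution and -0.44 ± 0.53 at lactation in KO glands, and at 2.05 ± 0.058 and -0.31 ± 1.398 in control glands. Cd34, Lyve1, Plvap and Vwf lay above in KO glands, and Aplnr and Sox17 in control glands. Lyve1, Vwf and Sox17 passed the filter only with the involution libraries, so nothing can be read from them here.

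Between KO and control glands at involution, 28 other vessel genes were compared. The ratios of Cd34, Emcn, Plvap and Vwf were higher in every KO library, against 1.76% of all genes, and that of Ptprb was lower, against 1.3%. Fibroblasts also carry Cd34 and platelets Vwf, and their part in these ratios was not tested. Cd34 stood at 0.72 ± 0.40 in KO and 0.067 ± 0.15 in control glands, and Plvap at 0.45 ± 0.18 in KO and -0.49 ± 0.49 in control glands. Emcn stood at -0.55 ± 0.22 in KO and -1.004 ± 0.019 in control glands. These 3 genes and Vwf encode surface, fenestral and clotting proteins, while Ptprb, at -2.59 ± 0.12 in KO and -2.33 ± 0.21 in control glands, encodes the phosphatase. Prox1, which was below the filter, stood at -6.53 ± 0.37 in KO and -5.55 ± 0.15 in control glands, also without overlap.

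Signals that act on vessels, their receptors and related genes were taken as a further list of 39 symbols. At lactation 16 of the 19 tested had positive differences (51.2% of all genes), with a median of 0.26, and 0 were called (0.0105%). At involution 21 of the 36 tested were positive (51.8% of all genes), with a median of 0.11, and 0 were called (0.0719%). Angptl4, a secreted inhibitor of lipoprotein lipase, stood at 323, 186, 455 and 480.5 FPKM in KO and 714, 609 and 1131 FPKM in control glands. Every KO library lay below every control, with a difference of -1.19 ± 0.38 (adjusted p = 0.563 with limma). Thbs1, the angiogenesis inhibitor thrombospondin-1, stood at 42.4, 32.3, 29.1 and 43.3 FPKM in KO and 23.0, 31.5 and 16.6 FPKM in control glands and overlapped (0.66 ± 0.25, 95% interval 0.098 to 1.23). Figf, which encodes the lymphatic growth factor VEGF-D, stood at 5.32, 5.82, 4.55 and 2.55 FPKM in KO and 3.23, 2.56 and 2.09 FPKM in control glands, with 1 KO library among the controls (0.60 ± 0.25, 95% interval 0.031 to 1.18). The apelin gene Apln stood at 1.30, 0.867, 1.16 and 0.404 FPKM in KO and 2.05, 1.13 and 3.62 FPKM in control glands and overlapped (-0.69 ± 0.29, 95% interval -1.36 to -0.029). Vegfa, named for its role as the main ligand of Kdr, differed by 0.18 ± 0.20 at involution and 0.14 ± 0.29 at lactation.

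Genes of endothelial activation and leukocyte adhesion were sparse. At lactation 3 of 11 symbols were tested, 1 of them positive (51.2% of all genes), and 0 were called (0.0105%). At involution 9 were tested, 4 positive (51.8% of all genes), and 0 were called (0.0719%). Ackr1, a chemokine-binding receptor of venules, stood at 9.49, 7.78, 5.88 and 4.36 FPKM in KO and 3.59, 2.36 and 2.98 FPKM in control glands at involution. The groups did not overlap (0.97 ± 0.25, 95% interval 0.40 to 1.54, adjusted p = 0.417). Selp, the P-selectin of venules and platelets, stood at 1.75, 4.07, 3.81 and 2.14 FPKM in KO and 1.59, 1.49 and 1.92 FPKM in control glands and overlapped in 1 KO library (0.54 ± 0.24, 95% interval -0.027 to 1.10).

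Of the capillary lipid uptake genes, 10 of 11 were tested at each stage. Positive differences were found for 7 at involution (51.8% of all genes) and 8 at lactation (51.2%). At involution 0 were called (0.0719% of all genes), and at lactation 0 (0.0105%). Lmf1, a chaperone that lipoprotein lipase needs to fold, stood at 17.4, 14.3, 18.1 and 13.5 FPKM in KO and 22.5, 24.6 and 27.0 FPKM in control glands at involution. Every KO library lay below every control (-0.59 ± 0.15, 95% interval -0.94 to -0.24, adjusted p = 0.419). Lpl, named for its role as the lipase that Gpihbp1 holds at the capillary wall, ran over 120.1 to 411 FPKM in KO and 155 to 296 FPKM in control glands, with a difference of 0.14 ± 0.45.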

How the data were processed

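RNA of whole mammary glands was sequenced in 13 libraries, and the authors deposited 2 tables of FPKM values (fragment numbers scaled by transcript length and library total), 1 per stage. CASAVA, cutadapt, TopHat and the build mm9 are named per the submitters' processing notes, while versions, the gene annotation and the program that made the FPKM are not stated there. 4649 genes were at 0 in all 13 libraries. The tables may have been scaled separately, so no test was run across them except for the difference of the KO differences.

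Within a table each library was rescaled by the median of ratios, and log2(FPKM + 1) was tested with limma 3.58.1 (R 4.3.3, trended empirical Bayes, two-sided) on genes that reached 1 FPKM in 3 or more libraries of the fit. P-values were adjusted over all tested genes by Benjamini-Hochberg, with a threshold of 0.05. FPKM are printed as deposited, and fold changes of low genes are understated by the pseudocount of 1. P-values measure the spread between mice, and depth is known only as a relative value from steps between low FPKM. The test was checked on simulated data. The planted changes were larger than any KO difference of the vessel genes and lay in genes well above the filter. How the test performs at smaller differences or lower levels was not checked. Every vessel gene was named, and of other lists up to 4 genes with the smallest p at involution. The members and lists were chosen with earlier results of these data known. A correction of each library for its trend on transcript length (lowess, span 0.3) was added after the trend in M44175 was seen. The mouse as a block in the difference between stages (limma's duplicateCorrelation) was also added after the data were seen. Other scalings, filters and left-out libraries were tried as alternatives.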

Additional observations from a re-analysis of the deposited data

Results flagged for a closer look

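Among the vessel genes, only the group of 4 KO libraries at involution was large enough for a test of 1 sample far from the others. It was run on each of the 34 genes, and 2 genes were picked out. Chance picks about 1 in 20 groups, so 2 of 34 is near the number that chance gives. The share over all genes was not computed. Eng reached 33.8 FPKM in KO M44176, far above the other 3 KO libraries, which lay between 18.9 and 21.1 FPKM. This library was also the highest for 22 of the 34 vessel genes. Pdpn stood at 3.17 FPKM in KO M43767, far below the other 3, which lay between 4.91 and 5.11 FPKM.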

How the results depend on the processing

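No vessel gene passed the adjusted threshold in any of the alternatives run, and of the vessel genes with an unadjusted p under 0.05 Emcn alone changed sign, at lactation (-0.062 when scaled to the pan-endothelial genes). The nearest was Tie1 at lactation with array weights (limma, adjusted p = 0.0545). In that fit 15 of 23 vessel genes were higher at an unadjusted p under 0.05, and 14.1% of all genes had such a p. The 1 gene called at lactation became 2 with a pseudocount of 0.1, with scaling to the total outside milk proteins or with the length trend removed, 9 with array weights, 0 without genes at 0 in a whole group, and 0 to 3 when 1 library was left out. The vessel gene median of 0.60 became 0.76 with a pseudocount of 0.1, 0.42 with no filter, 0.76 with the milk-free total (where the median of all genes was 0.23), -0.015 with the pan-endothelial scaling and 0.45 to 0.64 when 1 library was left out. The 9 genes called at involution became 19 with the milk-free total, 14 with robust empirical Bayes, 20 with array weights, 1 without genes at 0 in a whole group and 2 to 9 when 1 library was left out. The 10 genes called for the difference between stages became 16 with array weights, 20 with the mouse as a block, 1 without genes at 0 in a whole group, 2 without the 4 libraries of mice M43767 and M43768, and 6 to 12 when 1 library was left out, and its vessel gene median of -0.29 became 0.078 with the pan-endothelial scaling, -0.53 with a pseudocount of 0.1 and -0.48 with the milk-free total. The stage medians became 0.55 in KO and 0.72 in control glands when all libraries were rescaled together. The causes were not tested. Within a stage, no paired analysis was possible because KO and control libraries share no mouse number. Only the difference between stages could take the mouse as a block, which was added after the data were seen and rests on 2 mice that stand at both stages. With 3 or 4 libraries a group and low FPKM for lymphatic genes, small differences could not be detected. The unadjusted intervals do not mark the limit of the adjusted test. Tie1 at lactation (95% interval 0.34 to 1.15) and Pdpn at involution (0.23 to 1.04) had intervals above 0 and were not called.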
